A study of Danio rerio with 9 samples.

Results

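The G2/M and mitosis genes described here are 49 genes of the authors' annotation sheet. Their names belong to the mitotic kinesins, centromere proteins, B- and A-type cyclins, Bub, Aurora and Polo-like kinase families, the Ndc80 and condensin complexes, or a short list of further mitotic genes headed by mki67. They were found by name alone, among the 15530 genes of the sheet. The count table held 33737 genes, and all 49 were among the 19875 of these that were tested. One of them, aurkaip1, shares the name of Aurora kinase A but encodes a protein associated with the mitochondrial ribosome. It is kept in the counts, sums and medians of the 49, and sums and medians of the other 48 are also given. The names cdc20, prc1a, espl1 and incenp matched no row of the sheet. A further 13 genes carry such a name in a separate gene name table but were not matched in the sheet, among them CCNB2, KIF14, bub1bb and espl1. The sheet does list cenpu, in capitals as CENPU, which the lower-case naming pattern did not match. Of the 13, 12 were tested and none passed in any comparison (smallest adjusted p = 0.239, edgeR).

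RNA was sequenced from Müller glia that were sorted by fluorescence from retinas of Tg(gfap:EGFP)mi2002 zebrafish at 8 to 11 months of age. In this line the glial gfap promoter drives EGFP. The groups were 0 hours post lesion (hpl), from unlesioned control fish, and 8 hpl and 16 hpl, from fish given a light lesion, with 3 libraries each. The lesion was 30 minutes of light at over 120000 lux. All fish carried the same transgene. Lesion, hour of collection and light cannot be told apart, since no unlesioned fish were taken at 8 or 16 hours. The labels do not say whether the libraries of a group came from separate fish or pools, so p-values measure only the spread between these libraries, which may be technical.

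Müller glia are the main supporting glia of the retina, and in zebrafish they re-enter the cell cycle after injury and give rise to neuronal progenitors. Entry into mitosis is driven by the kinase Cdk1 with cyclin B, after which condensins compact the chromosomes and kinetochores attach them to the spindle. A checkpoint built from Bub, Mad and Ttk proteins delays anaphase until all are attached, and the spindle midzone then organises cytokinesis. Transcripts of these genes accumulate mainly in S phase, G2 and mitosis, so their summed level in sorted cells is commonly read as an index of cycling. The roles given below are those known for the orthologues in human cells and other model organisms.

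Library totals were 17551981 to 21439636 expected counts at 0 hpl, 22549034 to 26608088 at 8 hpl and 11714633 to 22510425 at 16 hpl, with 16 hpl replicate 3 the shallowest. Replicates 1 and 3 of 8 hpl and replicate 2 of 16 hpl stood apart from the other 6 libraries on the first principal component of all genes, which held 30.7% of the variance. They had 181, 195 and 369 CPM (counts scaled to library size) of the clock gene per1b, against 664 to 1490 CPM elsewhere. The Müller glia markers gfap and rlbp1a were present in every library, at 60.2 to 168 and 134 to 436 CPM. The preparations also held RNA of other cells: rod rhodopsin (rho) made up 21248 to 72134 CPM in every library. Of 28 matched microglial and macrophage genes, 13 were high enough to be tested. Levels differed widely within this list: ctsl.1 was at 0 in all 9 libraries and c1qa at 0.0865 CPM or less. The 13 tested microglial and macrophage genes summed to 145 to 183 CPM at 0 hpl, 172 to 182 CPM at 8 hpl and 174 to 244 CPM at 16 hpl, most of it aif1l. The summed level of 20 cone genes was 11570 to 15049 CPM at 0 hpl, 3743 to 6724 CPM at 8 hpl and 4678 to 8904 CPM at 16 hpl. That of 18 rod precursor and progenitor genes was 2760 to 2950 CPM at 0 hpl, 1583, 2679 and 1614 CPM at 8 hpl, and 3161, 1852 and 2880 CPM at 16 hpl. The libraries that stood apart held the lowest of these values. The median log2 fold change of these 18 genes against 0 hpl was -0.36 at 8 hpl and -0.07 at 16 hpl. edgeR called 0 of the 18 lower at either time, and fabp11a higher at 16 hpl. The 5 tested neutrophil genes summed to 2.99 to 4.24 CPM at 0 hpl, 8.16 to 11.73 CPM at 8 hpl, and 22.8, 300.1 and 24.2 CPM at 16 hpl. Of these, mmp9 and lyz rose at 16 hpl against 0 hpl (adjusted p = 0.0235 and 0.0313, edgeR). mmp9, which injured zebrafish Müller glia are also known to express, held 294 CPM in replicate 2 of 16 hpl. The 10 bipolar cell genes summed to 2720 to 3040 CPM at 0 hpl, 2858 to 3258 CPM at 8 hpl, and 3220, 7109 and 2630 CPM at 16 hpl. Single genes of this list did not all follow the sum. Their median log2 fold change against 0 hpl was -0.48 at 8 hpl and -0.09 at 16 hpl. At both times edgeR called prkca lower and 0 of the 10 higher. The part of these cells in the values below was not tested.

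Mitotic transcripts were present in the sorted preparations from unlesioned fish, and none of the 49 genes passed the test at 8 or 16 hpl. With edgeR's quasi-likelihood test and Benjamini-Hochberg adjustment over all genes tested, 0 of 49 were called at 8 hpl against 0 hpl, where 2.83% of all genes were called. The count was also 0 of 49 at 16 hpl against 0 hpl (2.09% of all genes), 0 of 49 at 16 hpl against 8 hpl (0.101%) and 0 of 49 in the test over the 3 times (3.23%). At an unadjusted p under 0.05, 6 of the 49 stood out at 8 hpl against 0 hpl (16.2% of all genes), 1 at 16 hpl against 0 hpl (14.8%), 2 at 16 hpl against 8 hpl (13.6%) and 3 over the 3 times (18.5%). DESeq2, run on the same counts, called 2 at 8 hpl against 0 hpl (cenpe higher, ncapd2 lower), where it called 7.57% of all genes. It called 0 at 16 hpl against 0 hpl (6.4%), 1 at 16 hpl against 8 hpl (3.85%, cenpe lower) and 1 over the 3 times (11.2%, cenpe). In these sorted populations, a change in the number of cycling cells and a change in mitotic RNA per cell cannot be told apart.

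The summed level of the 49 genes was 523.7, 524.0 and 413.1 CPM at 0 hpl, 470.1, 451.4 and 507.5 CPM at 8 hpl, and 404.5, 577.7 and 406.1 CPM at 16 hpl. The group means were 487 ± 63.9 CPM at 0 hpl, 476 ± 28.6 CPM at 8 hpl and 463 ± 99.6 CPM at 16 hpl (SD, n = 3 each), and the sums overlapped between all times. The median log2 fold change of the 49 genes was -0.17 at 8 hpl against 0 hpl, -0.13 at 16 hpl against 0 hpl and 0.09 at 16 hpl against 8 hpl, beside 0.02, 0.03 and 0.01 over all genes tested. Without aurkaip1 the medians were -0.18, -0.13 and 0.09 in the same order. At 8 hpl 14 of the 49 lay above 0 (51.8% of all genes did), at 16 hpl 16 of 49 (52.4%), and at 16 hpl against 8 hpl 31 of 49 (51%).

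How large a rise the spread between these libraries could have hidden is given by the intervals. They take no account of RNA of other cells or of mislabelled libraries. The median 95% interval reached 0.70 log2 units to either side of the estimate at 8 and 16 hpl against 0 hpl. The upper bound lay below a 2-fold rise for 39 of the 49 genes at 8 hpl (59.9% of all genes) and for 41 of 49 at 16 hpl (60.4%). The 8 genes whose interval at 16 hpl reached a 2-fold rise or more were aurkaip1, aurkb, cenph, cenpn, cenpp, ncaph, spc24 and spc25. The interval lay within 2-fold in both directions for 22 of 49 at 8 hpl (41%) and 30 of 49 at 16 hpl (40.7%).

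**Figure D1:**
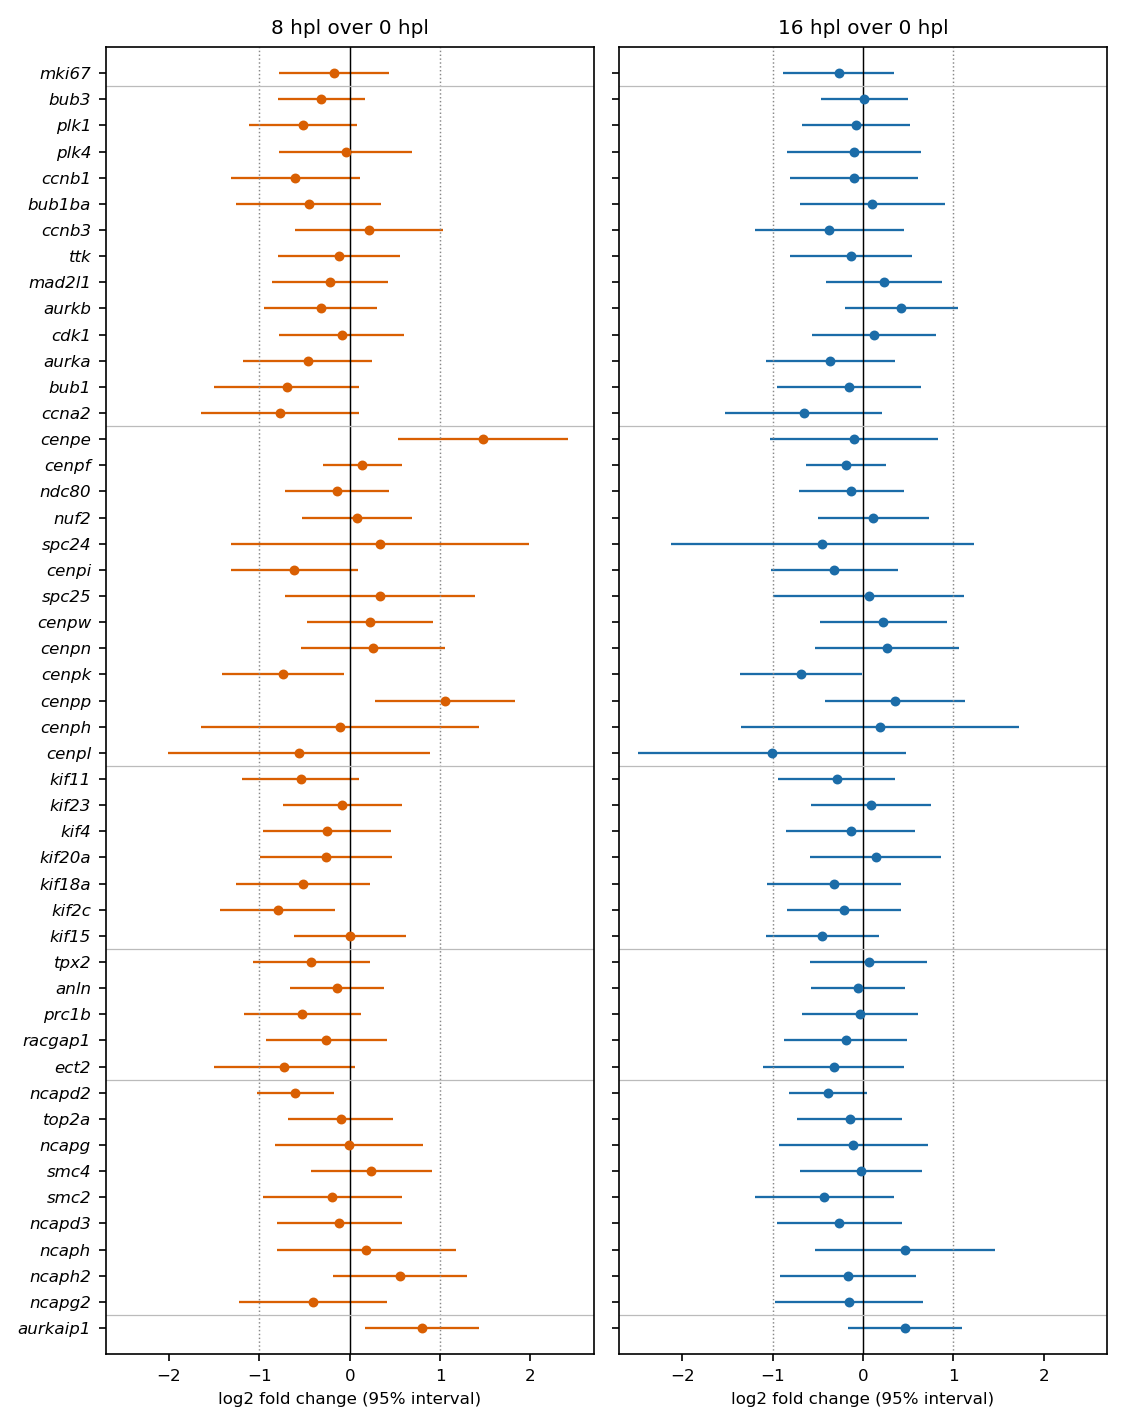
Log2 fold changes of the 49 genes at 8 hpl and at 16 hpl, each against 0 hpl, with 95% intervals from edgeR, ordered by role; the vertical lines mark no change and a 2-fold change. Most points lie a little left of 0, cenpe lies far to the right at 8 hpl only, and no gene passed the adjusted threshold in either panel.

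mki67 encodes the Ki-67 protein, which coats mitotic chromosomes and marks cycling cells. It had 36.1, 43.2 and 25.3 CPM at 0 hpl, 33.4, 30.1 and 29.3 CPM at 8 hpl, and 24.4, 41.4 and 21.1 CPM at 16 hpl. The 3 times overlapped, with replicates 1 and 3 of 16 hpl below all 0 hpl libraries and replicate 2 among them. The log2 fold change was -0.17 ± 0.28 (SE) at 8 hpl, with a 95% interval of -0.79 to 0.44. At 16 hpl it was -0.27 ± 0.28, with an interval of -0.88 to 0.35, so a doubling lay outside both. In the authors' FPKM, a level per transcript length, mki67 averaged 5.87 over the 9 libraries. The highest of the 48 mitotic genes on that scale were bub3 (20.6 FPKM), mad2l1 (12.5), ccnb1 (11.9), ccnb3 (9.66), cenpw (9.53), plk1 (9.53) and tpx2 (8.46), and the lowest kif15 (1.35), ect2 (1.23) and cenpl (1.05).

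None of the 13 kinases, cyclins and checkpoint genes passed the test. Of their log2 fold changes 12 lay below 0 at 8 hpl against 0 hpl (median -0.32), 8 at 16 hpl against 0 hpl (median -0.10) and 3 at 16 hpl against 8 hpl (median 0.33). Their summed mean level was 135 CPM at 0 hpl, 110 CPM at 8 hpl and 131 CPM at 16 hpl. cdk1 encodes the kinase of mitotic entry. It had 7.27, 7.01 and 6.95 CPM at 0 hpl, 6.74, 7.44 and 5.78 CPM at 8 hpl, and 5.84, 11.75 and 5.44 CPM at 16 hpl. Its 0 hpl libraries were nearly equal, and at 16 hpl replicate 2 alone lay above them. For cdk1 the log2 fold change was -0.09 ± 0.31 at 8 hpl and 0.12 ± 0.31 at 16 hpl, both against 0 hpl.

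ccnb1 encodes a B-type cyclin that activates Cdk1. It had 16.4, 11.8 and 10.2 CPM at 0 hpl, 8.37, 8.84 and 8.01 CPM at 8 hpl, and 12.5, 16.3 and 6.65 CPM at 16 hpl. All 8 hpl libraries lay below all 0 hpl libraries, while 16 hpl spanned both. Against 0 hpl, the log2 fold change of ccnb1 was -0.60 ± 0.32 at 8 hpl (adjusted p = 0.408) and -0.10 ± 0.32 at 16 hpl. ccnb3 encodes another B-type cyclin. It had 12.9, 9.79 and 9.04 CPM at 0 hpl, 14.9, 7.32 and 14.6 CPM at 8 hpl, and 8.87, 11.1 and 4.404 CPM at 16 hpl. Its 8 hpl libraries lay on both sides of the 0 hpl range, replicate 2 below it. ccna2 encodes the cyclin of S phase and G2. It had 7.67, 6.66 and 3.15 CPM at 0 hpl, 4.05, 2.81 and 3.36 CPM at 8 hpl, and 3.29, 5.16 and 2.56 CPM at 16 hpl. The low 0 hpl replicate 3 made the groups overlap. The log2 fold change of ccna2 against 0 hpl was -0.77 ± 0.39 at 8 hpl (adjusted p = 0.378). At 16 hpl it was -0.66 ± 0.39 (adjusted p = 0.494).

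plk1 encodes the Polo-like kinase of mitotic entry and spindle assembly. It had 17.5, 17.1 and 12.3 CPM at 0 hpl, 9.09, 13.4 and 10.3 CPM at 8 hpl, and 13.3, 19.8 and 11.4 CPM at 16 hpl. Against 0 hpl, plk1 had overlapping groups and a log2 fold change of -0.51 ± 0.27 at 8 hpl (adjusted p = 0.395) and -0.08 ± 0.27 at 16 hpl. plk4, which licenses centriole duplication, averaged 11.6 ± 1.96, 11.2 ± 3.39 and 10.8 ± 4.20 CPM at 0, 8 and 16 hpl (SD, n = 3 each). aurka encodes the centrosomal Aurora kinase. It had 8.42, 6.97 and 5.94 CPM at 0 hpl, 3.37, 7.56 and 4.52 CPM at 8 hpl, and 6.01, 5.83 and 4.72 CPM at 16 hpl. At 8 hpl replicate 2 lay inside the 0 hpl range and the other replicates below it.

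aurkb encodes the Aurora kinase of the chromosomal passenger complex, which corrects faulty spindle attachments. It had 6.76, 7.33 and 7.59 CPM at 0 hpl, 4.51, 6.51 and 6.36 CPM at 8 hpl, and 8.09, 13.5 and 7.53 CPM at 16 hpl. The 16 hpl libraries all lay above the 8 hpl libraries, and the 8 hpl libraries all below the 0 hpl libraries. At 16 hpl against 8 hpl the log2 fold change of aurkb was 0.75 ± 0.28 (unadjusted p = 0.0242, adjusted p = 0.286), the highest of the 49 in that comparison. At 8 hpl against 0 hpl it was -0.32 ± 0.28 (adjusted p = 0.657).

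Of the checkpoint genes, bub1 encodes a kinetochore kinase. It had 7.44, 6.39 and 3.05 CPM at 0 hpl, 3.14, 3.38 and 3.89 CPM at 8 hpl, and 4.50, 6.58 and 4.003 CPM at 16 hpl. The 16 hpl libraries lay above the 8 hpl libraries without overlap, by a narrow margin (log2 fold change 0.54 ± 0.36, adjusted p = 0.566). bub1ba is a copy of the BubR1 gene. It had 14.1, 10.6 and 9.25 CPM at 0 hpl, 6.06, 12.9 and 5.86 CPM at 8 hpl, and 14.8, 8.15 and 13.6 CPM at 16 hpl. In both lesioned groups its replicate 2 went the other way from replicates 1 and 3. bub3, which encodes a partner of Bub1 and BubR1, averaged 23.1 ± 1.90, 18.6 ± 4.15 and 23.3 ± 3.78 CPM at 0, 8 and 16 hpl (SD, n = 3 each). In the same order, mad2l1, the Mad2 checkpoint gene, averaged 8.05 ± 2.02, 6.93 ± 0.441 and 9.44 ± 3.07 CPM, and ttk, the Mps1 kinase gene, 9.38 ± 1.32, 8.63 ± 1.65 and 8.59 ± 3.02 CPM. bub3, mad2l1 and ttk overlapped between all times.

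None of the 13 kinetochore and centromere genes passed the test. Their log2 fold changes at 8 hpl spanned -0.74 for cenpk to 1.48 for cenpe, with 8 above 0. cenpe encodes the kinetochore motor that carries chromosomes to the spindle equator. It had 11.97, 13.8 and 11.66 CPM at 0 hpl, 45.05, 14.8 and 44.2 CPM at 8 hpl, and 6.58, 12.8 and 15.7 CPM at 16 hpl. Replicates 1 and 3 of 8 hpl had about as much as each other and stood far above all other libraries, while 8 hpl replicate 2 lay just above the 0 hpl range. At 8 hpl against 0 hpl the log2 fold change of cenpe was 1.48 ± 0.42 (95% interval 0.54 to 2.42, adjusted p = 0.102). At 16 hpl against 8 hpl it was -1.57 ± 0.43 (adjusted p = 0.158), and over the 3 times the adjusted p was 0.0801. Without 8 hpl replicate 2, cenpe was called at 8 hpl (log2 fold change 1.84, adjusted p = 0.00873). Without the 3 libraries that stood apart, 8 hpl rested on replicate 2 alone and the log2 fold change of cenpe was 0.242. Both values follow from which 8 hpl libraries were kept.

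The 4 genes of the Ndc80 complex, the main microtubule anchor of the kinetochore, did not keep 1 ratio in 8 hpl replicate 2. spc24 had 6.76, 9.79 and 4.55 CPM at 0 hpl, 12.96, 0.764 and 12.98 CPM at 8 hpl, and 3.33, 5.16 and 7.05 CPM at 16 hpl. Replicate 2 of 8 hpl was the lowest of all 9 libraries and rested on 19 counts. In that library the partners ndc80, nuf2 and spc25 had 9.49, 6.71 and 5.59 CPM, within the range of the other 8 libraries. Over the groups ndc80 averaged 9.27 ± 2.37, 8.39 ± 1.37 and 8.47 ± 1.11 CPM, and nuf2 6.94 ± 0.923, 7.34 ± 1.37 and 7.49 ± 2.16 CPM, at 0, 8 and 16 hpl (SD, n = 3 each). At 8 hpl against 0 hpl the log2 fold change of spc24 was 0.34 ± 0.74, the widest error among the 49. Without the 3 libraries that stood apart it turned to -3.2 (adjusted p = 0.0116), with 8 hpl then resting on replicate 2 alone, which was assumed to vary like the other groups.

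Among the inner kinetochore genes, cenpp and cenpk had values of opposite direction at 8 hpl. cenpp had 2.18, 1.30 and 1.93 CPM at 0 hpl, 4.77, 3.26 and 3.18 CPM at 8 hpl, and 1.86, 2.56 and 2.48 CPM at 16 hpl. All 8 hpl libraries of cenpp lay above both other times. The log2 fold change was 1.06 ± 0.35 at 8 hpl against 0 hpl (adjusted p = 0.154) and -0.70 ± 0.34 at 16 hpl against 8 hpl (adjusted p = 0.409). cenpk had 7.04, 6.03 and 5.24 CPM at 0 hpl, 3.98, 3.46 and 3.54 CPM at 8 hpl, and 4.80, 4.07 and 2.40 CPM at 16 hpl. Every lesioned library of cenpk lay below every unlesioned one. Against 0 hpl, the log2 fold change of cenpk was -0.74 ± 0.30 at 8 hpl (adjusted p = 0.26). At 16 hpl it was -0.69 ± 0.30, and its adjusted p of 0.327 was the smallest of the 49 in that comparison. cenpl had 1.203, 2.01 and 1.87 CPM at 0 hpl, 0.833, 1.05 and 1.57 CPM at 8 hpl, and 0.692, 1.61 and 0.160 CPM at 16 hpl. The last of these values rests on 2 counts, and the log2 fold change of -1.005 ± 0.67 at 16 hpl against 0 hpl had an interval of -2.48 to 0.48. cenpf, a large kinetochore protein of G2 and mitosis, was steadier, at 15.5 ± 2.38, 17.1 ± 2.03 and 13.6 ± 1.27 CPM at 0, 8 and 16 hpl (SD, n = 3 each).

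Condensins and topoisomerase II shape the mitotic chromosomes. None of these 9 genes passed the test, and 3 lay above 0 at 8 hpl and 1 at 16 hpl, both against 0 hpl. ncapd2 encodes a subunit of condensin I. It had 21.99, 24.6 and 18.8 CPM at 0 hpl, 14.1, 15.4 and 13.7 CPM at 8 hpl, and 14.7, 19.5 and 15.9 CPM at 16 hpl. The 8 hpl libraries were close together and all below 0 hpl, and 16 hpl replicate 2 reached into the 0 hpl range. Against 0 hpl, the log2 fold change of ncapd2 was -0.60 ± 0.19 at 8 hpl (adjusted p = 0.143 with edgeR and 0.0476 with DESeq2). At 16 hpl it was -0.39 ± 0.19 (adjusted p = 0.395). ncaph2 encodes a subunit of condensin II. It had 4.92, 5.54 and 3.58 CPM at 0 hpl, 7.80, 4.82 and 8.06 CPM at 8 hpl, and 3.63, 5.83 and 3.04 CPM at 16 hpl. As for cenpe, the 8 hpl libraries above the others were replicates 1 and 3, and the log2 fold change of 0.56 ± 0.34 at 8 hpl had an adjusted p of 0.482. top2a, topoisomerase II alpha, averaged 18.4 ± 5.43, 17.2 ± 3.49 and 16.6 ± 2.34 CPM at 0, 8 and 16 hpl (SD, n = 3 each). ncaph, the kleisin of condensin I, had 4.28, 12.3 and 4.24 CPM at 16 hpl, against 3.55, 6.79 and 4.81 CPM at 0 hpl. Replicate 2 of 16 hpl alone lay above the 0 hpl range (log2 fold change 0.46 ± 0.45).

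**Figure D2:**
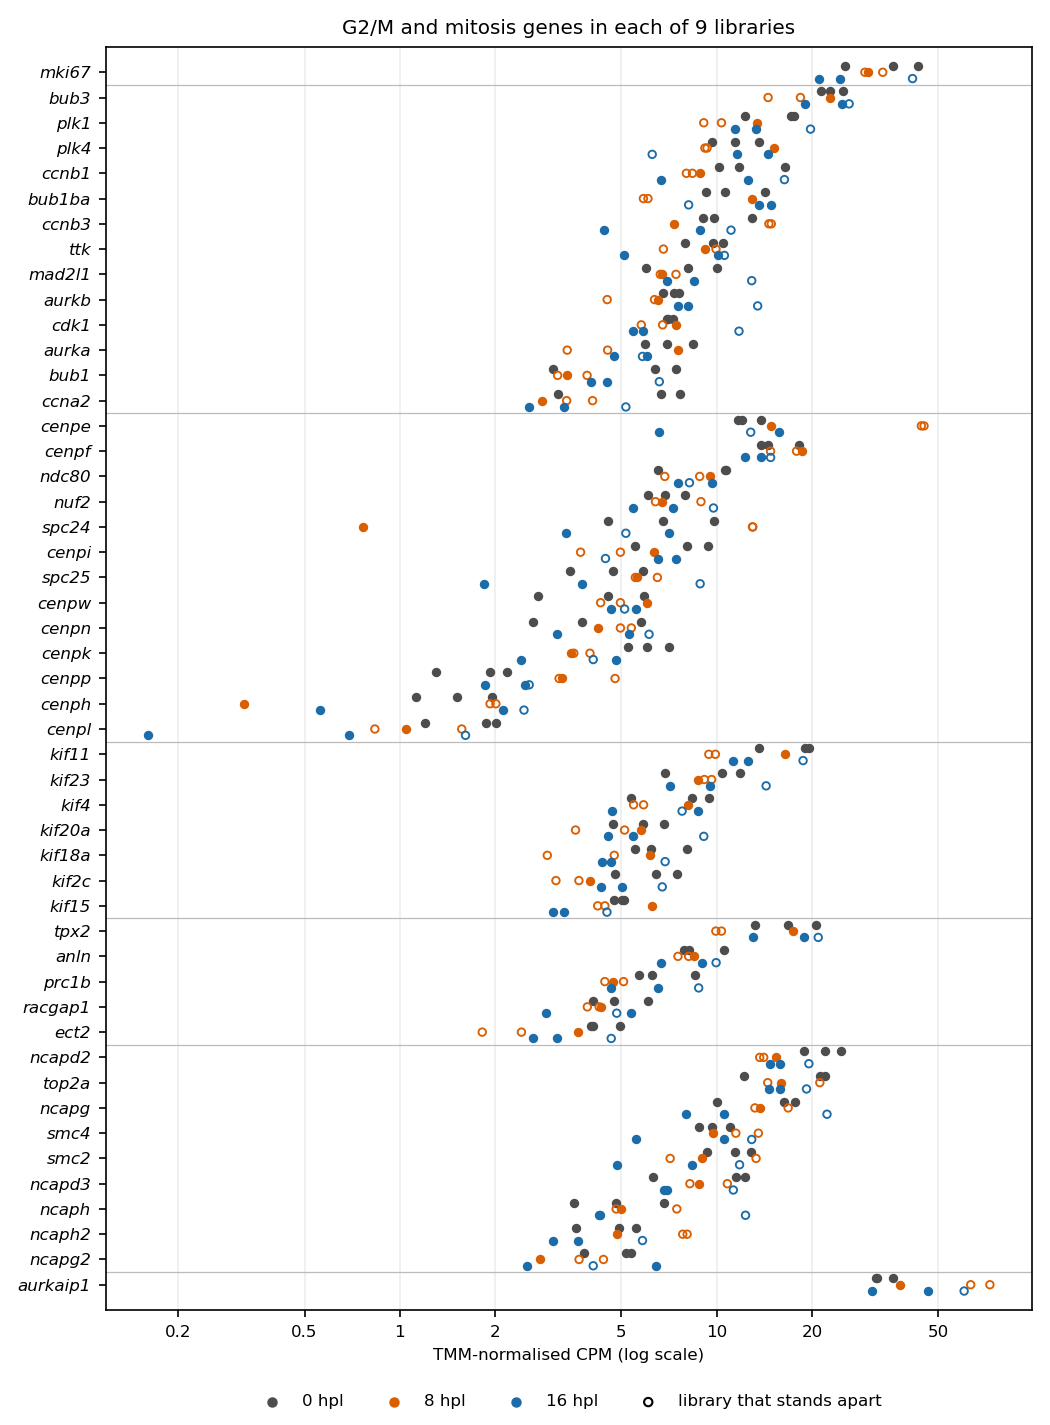
CPM of the 49 genes in each of the 9 libraries at 0, 8 and 16 hpl, on a log axis, 1 point per library, with genes ordered by role and then by level. Open points are the 3 libraries that stood apart (8 hpl replicates 1 and 3, 16 hpl replicate 2). mki67 and cdk1 overlap between times, cenpe is high in 2 of the 3 libraries at 8 hpl, and cenpk is lower in all 6 lesioned libraries.

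The mitotic kinesins slide or shorten spindle microtubules or act at the midzone. All 7 missed the threshold, and 6 had a log2 fold change below 0 at 8 hpl and 5 at 16 hpl, both against 0 hpl. kif2c encodes a microtubule depolymerase at centromeres. It had 6.41, 7.51 and 4.76 CPM at 0 hpl, 3.11, 3.98 and 3.67 CPM at 8 hpl, and 5.02, 6.73 and 4.32 CPM at 16 hpl. The 8 hpl libraries lay below those of both other times without overlap. Its log2 fold change of -0.80 ± 0.29 (unadjusted p = 0.019, adjusted p = 0.195) was the lowest of the 49 at 8 hpl against 0 hpl. At 16 hpl against 8 hpl it was 0.58 ± 0.29 (adjusted p = 0.411). kif11 encodes the motor that separates the spindle poles. It had 19.5, 19.0 and 13.6 CPM at 0 hpl, 9.43, 16.4 and 9.89 CPM at 8 hpl, and 11.2, 18.7 and 12.6 CPM at 16 hpl. In both lesioned groups replicate 2 alone lay within the 0 hpl range. kif15, a spindle motor that acts beside kif11, had 3.29, 4.50 and 3.04 CPM at 16 hpl, against 4.75, 5.004 and 5.08 CPM at 0 hpl. The groups did not overlap (log2 fold change -0.45 ± 0.28, adjusted p = 0.521). kif23, the motor of the central spindle, averaged 9.69 ± 2.57, 9.16 ± 0.451 and 10.3 ± 3.65 CPM at 0, 8 and 16 hpl (SD, n = 3 each).

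None of the 5 genes of spindle assembly and cytokinesis passed the test. All lay below 0 at 8 hpl against 0 hpl (median -0.43) and all above 0 at 16 hpl against 8 hpl (median 0.40). These comparisons share the 8 hpl libraries. tpx2 encodes an activator of Aurora A on the spindle. It had 20.6, 16.8 and 13.2 CPM at 0 hpl, 9.93, 17.4 and 10.3 CPM at 8 hpl, and 13.02, 20.9 and 18.9 CPM at 16 hpl. At 8 hpl its replicate 2 again lay inside the 0 hpl range and the other replicates below it. ect2 encodes the exchange factor that starts the contractile ring. It had 4.01, 4.96 and 4.06 CPM at 0 hpl, 1.82, 3.66 and 2.42 CPM at 8 hpl, and 2.64, 4.64 and 3.12 CPM at 16 hpl. All 8 hpl libraries of ect2 lay below 0 hpl (log2 fold change -0.72 ± 0.35, adjusted p = 0.355). prc1b, a microtubule bundler of the midzone, had 5.08, 4.70 and 4.43 CPM at 8 hpl, against 8.53, 6.26 and 5.67 CPM at 0 hpl. The groups did not overlap (log2 fold change -0.52 ± 0.29, adjusted p = 0.433). anln, which encodes the ring scaffold anillin, averaged 8.88 ± 1.45, 8.06 ± 0.479 and 8.53 ± 1.70 CPM, and racgap1, the partner of kif23, 4.96 ± 1.02, 4.15 ± 0.218 and 4.36 ± 1.30 CPM, at 0, 8 and 16 hpl (SD, n = 3 each).

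Counted over all 49, 3 genes had all 8 hpl libraries above all 0 hpl libraries (aurkaip1, cenpe and cenpp), a pattern shown by 13.9% of all genes. Another 7 had them all below (aurkb, ccnb1, cenpk, ect2, kif2c, ncapd2 and prc1b), as did 12.9% of all genes. At 16 hpl against 0 hpl the counts were 0 above (10.7% of all genes) and 2 below (10.4%, cenpk and kif15). At 16 hpl against 8 hpl they were 3 above (8.49%, aurkb, bub1 and kif2c) and 1 below (8.34%, cenpp). As shares of 49 the counts above were 6.12%, 0% and 6.12%, and those below 14.3%, 4.08% and 2.04%, close to or under the shares of all genes. aurkaip1, the gene of the mitochondrial ribosome protein, had 32.1, 31.8 and 36.0 CPM at 0 hpl, 63.2, 37.8 and 72.7 CPM at 8 hpl, and 46.3, 60.3 and 30.9 CPM at 16 hpl. All 8 hpl libraries lay above 0 hpl (log2 fold change 0.80 ± 0.28, adjusted p = 0.191). It averaged 71.6 FPKM, above all 48 mitotic genes. Without it the summed level of the 48 was 454 ± 66.3, 418 ± 14.6 and 417 ± 87.4 CPM at 0, 8 and 16 hpl (SD, n = 3 each).

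Some libraries held high or low values for many of the 49 genes at once. 16 hpl replicate 2 had the highest value of all 9 libraries for 16 of the 49 genes, beside 23.7% of all genes tested. Replicates 1 and 2 of 0 hpl had the highest for 9 and 10 of the 49, beside 8.06% and 7.24%. 16 hpl replicate 3, the shallowest, had the lowest for 14, beside 16.3%. Replicate 1 of 8 hpl and replicate 1 of 16 hpl had the lowest for 9 and 8, beside 8.05% and 7.55%. Replicate 2 of 16 hpl was also the library with the highest bipolar, neutrophil and Müller glia marker sums and the lowest rod sum. Most of the neutrophil sum there was mmp9. The neutrophil gene lyz was lower in 16 hpl replicate 2 (1.52 CPM) than in replicates 1 and 3 (3.16 and 3.60 CPM). The Müller glia sum of 16 hpl replicate 2 was 2907 CPM over 15 genes, with the highest gfap (168 CPM) but the lowest rlbp1a (134 CPM). The part of these cells in the high mitotic values was not tested. Against each gene's mean, the median gene stood at 0.30, 0.28 and -0.12 log2 units at 0 hpl, -0.16, -0.03 and -0.07 at 8 hpl, and -0.23, 0.35 and -0.18 at 16 hpl. Replicate 2 of 16 hpl thus resembled replicates 1 and 2 of 0 hpl in this measure, and 0 hpl replicate 3 lay with most lesioned libraries. The 0 hpl replicate 3 library also had the highest rod sum, 131045 CPM, against 79918.5 and 78537 CPM in replicates 1 and 2. Its Müller glia sum was the lowest, 1407 CPM against 2133 and 2026 CPM. Whether this make-up plays a part in its mitotic values was not tested.

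**Figure D3:**
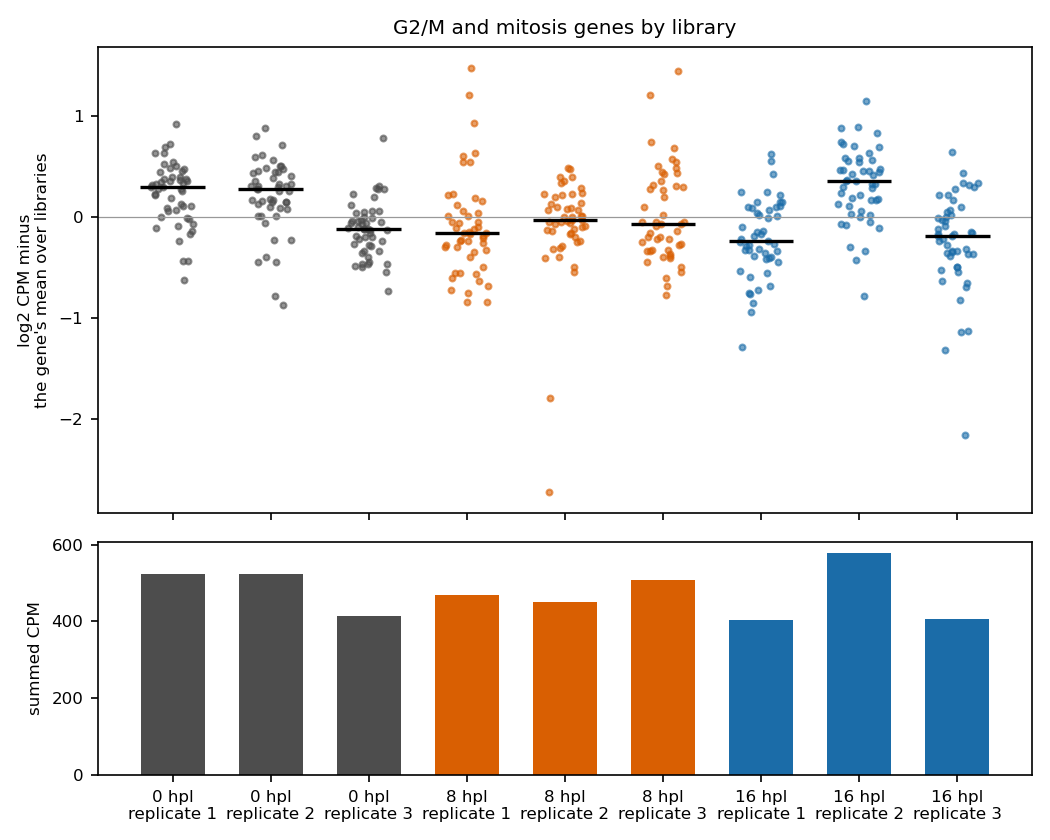
Upper panel: log2 CPM of each of the 49 genes minus the gene's mean over the 9 libraries, 1 point per gene, with the median as a black line. It is highest in 16 hpl replicate 2 at 0.35 and lowest in 16 hpl replicate 1 at -0.23. Lower panel: summed CPM of the 49 genes, bars from 0.

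In both lesioned groups, replicate 2 departed from the other libraries of its group in both directions over all genes tested. Among the 49, as many departed upward as downward at 8 hpl, while at 16 hpl most departed upward. At 8 hpl, replicate 2 was more than 1.5-fold above both other libraries of its group for aurka, bub1ba, ect2, kif11, plk4 and tpx2 (6 of 49, beside 15.1% of all genes) and more than 1.5-fold below both for aurkaip1, ccnb3, cenpe, cenph, ncaph2 and spc24 (6 of 49, beside 17.6%). At 16 hpl, replicate 2 was above both others by that margin for 13 of 49, among them mki67, cdk1, aurkb, ccna2, mad2l1 and kif23 (19.9% of all genes), and below both for bub1ba and plk4 (17.7%). bub1ba and plk4 were therefore high in replicate 2 of 8 hpl and low in replicate 2 of 16 hpl. The clock gene per1b had 1309 CPM in replicate 2 of 8 hpl and 181 and 195 CPM in the others of that time, and 369 CPM in replicate 2 of 16 hpl and 1214 and 1490 CPM in the others. Whether the hour of collection or the labels of these libraries play a part was not tested.

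**Figure D4:**
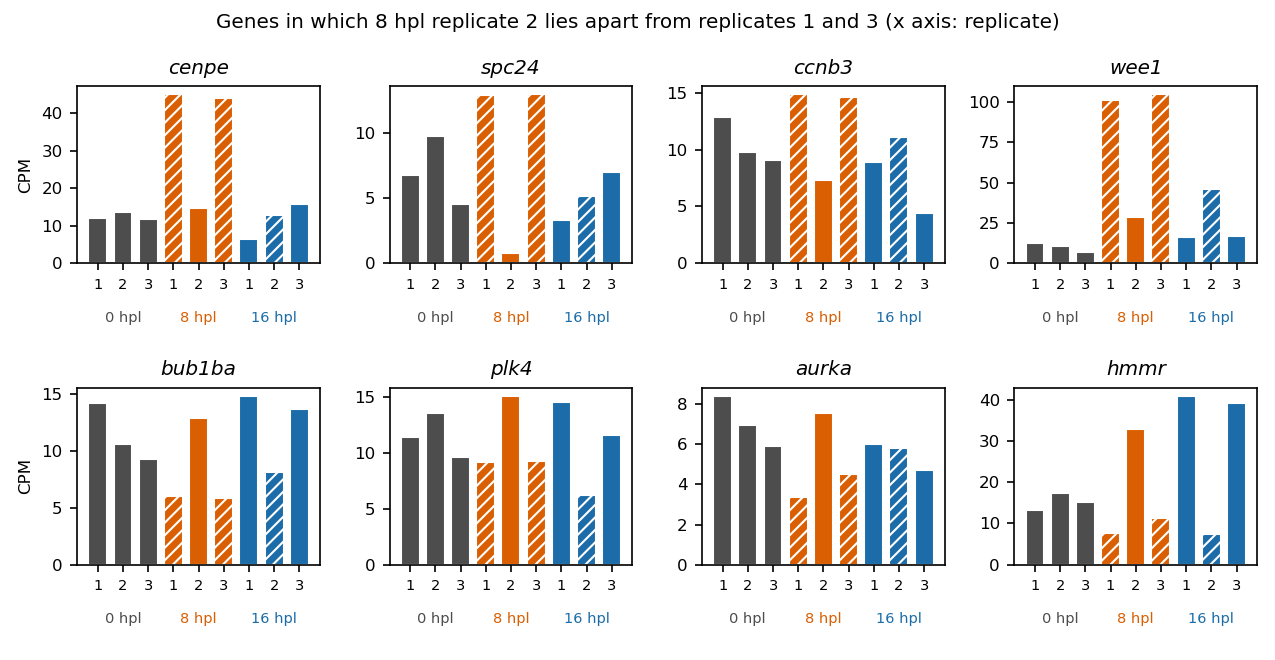
CPM of 8 genes in which 8 hpl replicate 2 lay apart from replicates 1 and 3, as bars from 0 for each library at 0, 8 and 16 hpl, hatched for the 3 libraries that stood apart. wee1 and hmmr are mitotic regulators outside the 49. In cenpe, spc24, ccnb3 and wee1 the hatched 8 hpl bars are the high ones, and in bub1ba, plk4, aurka and hmmr they are the low ones.

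The authors' deposited table gives more calls for the same genes. At 8 hpl the authors' deposited table lists 4 of the 49 as higher than 0 hpl at an adjusted p under 0.05 (aurkaip1, cenpe, cenpp and ncaph2), beside 19.7% of its 15530 genes, and 15 as lower, beside 18%. The 15, all of the authors' deposited table, are the kinase, cyclin and checkpoint genes aurka, bub1, bub1ba, bub3, ccna2, ccnb1 and plk1, the spindle genes kif11, kif18a, kif2c and tpx2, the centromere genes cenpi and cenpk, and ncapd2 and ect2. At 16 hpl the authors' deposited table lists 0 as higher (6.86% of its genes) and 1 as lower (6.3%), ncapd2 (log2 fold change -0.57, adjusted p = 0.0339). For mki67 the authors' deposited table has a log2 fold change of -0.20 at 8 hpl (adjusted p = 0.346). At 16 hpl the authors' deposited table has -0.58 for mki67, with an adjusted p of 0.0803. The median over the 49 in the authors' deposited table is -0.27 at 8 hpl and -0.35 at 16 hpl.

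A limma-voom fit that estimates a quality weight for each library came close to those values. It gave 8 hpl replicate 2 a weight of 0.241 and 16 hpl replicate 2 a weight of 0.189, where the other 7 libraries had 0.724 to 2.64. It called 18 of the 49 at 8 hpl, 4 higher and 14 lower, where it called 27.8% of all genes, and all 18 were among the 19 of the authors' deposited table. At 16 hpl it called the same single gene, ncapd2 (10.5% of all genes). limma-voom without such weights called 0 of the 49 at either time. The median difference in log2 fold change from the authors' deposited table was 0.00529 at 8 hpl and 0.00946 at 16 hpl for this fit, in absolute value, against 0.103 and 0.255 for edgeR with all libraries counted equally. With libraries counted equally, DESeq2 called 1 gene lower at 8 hpl, ncapd2, and edgeR called 0. The authors' own model is not stated in the sources used here.

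**Figure D5:**
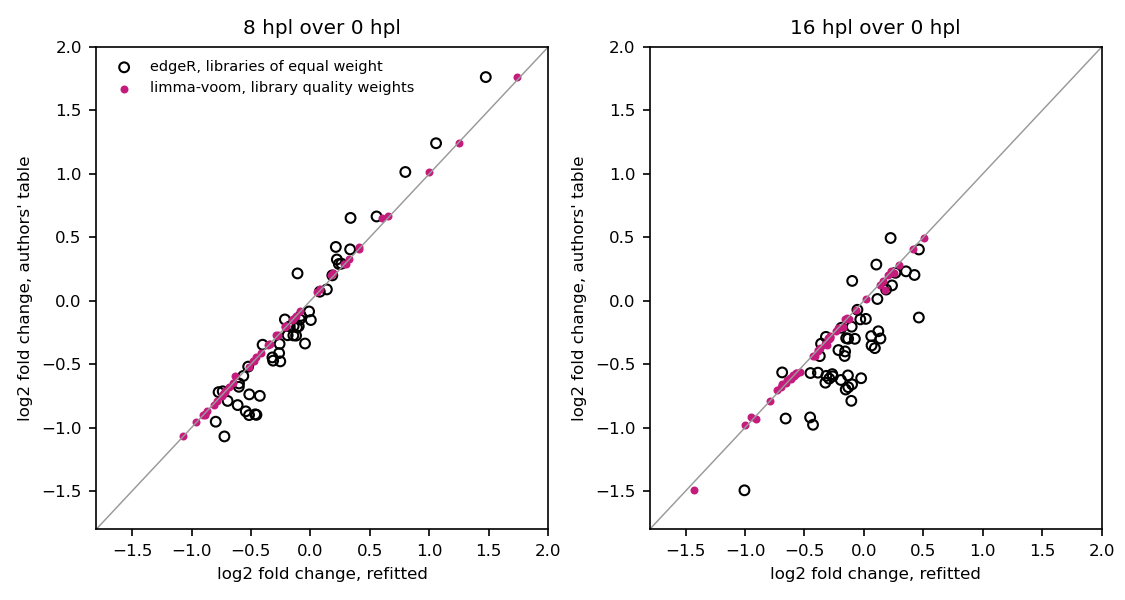
Log2 fold changes of the 49 genes over 0 hpl at 8 hpl (left) and 16 hpl (right): refitted values on the x axis, those of the authors' deposited table on the y axis, with the line of equality. Filled points (limma-voom, library quality weights) lie on the line, while open points (edgeR, equal weight) depart from it by a median of 0.103 at 8 hpl and 0.255 at 16 hpl.

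Calls among other cell cycle genes are given beside the 2.83% of all genes called at 8 hpl and 2.09% at 16 hpl, both against 0 hpl. Of 51 further G2/M and mitosis genes outside the naming pattern, such as the mitotic transcription factor FOXM1, the ubiquitin-conjugating enzyme ube2c and the importin kpna2, 1 rose at 8 hpl against 0 hpl and 0 passed in the other comparisons. Their median log2 fold change was -0.04 at 8 hpl and -0.04 at 16 hpl, both against 0 hpl. The gene that rose was wee1, which encodes the kinase that holds Cdk1 inactive before mitosis. It had 12.6, 10.7 and 6.95 CPM at 0 hpl, 101, 28.7 and 105 CPM at 8 hpl, and 16.4, 46.2 and 16.7 CPM at 16 hpl. All 8 hpl libraries of wee1 lay above 0 hpl, replicates 1 and 3 by far the most (log2 fold change 2.95 ± 0.56, adjusted p = 0.0255). The call was lost when any 0 hpl library or either of those replicates was left out, and with replicate number as a block (log2 fold change 1.5 to 3.35 over 20 alternative settings). mybl2a, a copy of the B-Myb gene that drives late cell cycle transcription, had 19.5, 7.08 and 16.7 CPM at 8 hpl, against 5.38, 5.72 and 6.04 CPM at 0 hpl. The same 8 hpl replicates were high, short of the threshold (log2 fold change 1.34 ± 0.34, adjusted p = 0.073), and the gene was named after its values were seen.

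Of 41 tested genes of the G1/S transition and DNA replication, 1 rose at 8 hpl and 0 at 16 hpl against 0 hpl. It was rrm1, which encodes the large subunit of ribonucleotide reductase. It had 33.8, 32.97 and 31.4 CPM at 0 hpl, 68.9, 43.1 and 79.7 CPM at 8 hpl, and 32.1, 40.1 and 34.5 CPM at 16 hpl. Its log2 fold change of 0.97 ± 0.22 at 8 hpl had an adjusted p of 0.0497. The call was lost in 11 of 20 alternative settings (0.394 to 1.18), among them leaving out any 0 hpl library, 8 hpl replicate 1 or 3, or 16 hpl replicate 1 or 3. pcna, the replication clamp, had 234, 200 and 225 CPM at 0 hpl, 237, 185 and 251 CPM at 8 hpl, and 189, 216 and 161 CPM at 16 hpl, with overlap throughout. Among 24 tested cell cycle inhibitors and quiescence genes, gadd45ba, a stress gene that restrains Cdk1, rose at both times. It had 234, 243 and 271 CPM at 0 hpl, 480, 689 and 465 CPM at 8 hpl, and 663, 923 and 625 CPM at 16 hpl. Every lesioned library of gadd45ba lay above every unlesioned one. The log2 fold change against 0 hpl was 1.13 ± 0.24 at 8 hpl (adjusted p = 0.0359), a call lost in 7 of 20 alternative settings (0.922 to 1.46), namely without any 0 hpl library, 8 hpl replicate 1 or 3, or 16 hpl replicate 1, and with replicate number as a block. At 16 hpl it was 1.56 ± 0.24 (adjusted p = 0.0107), a call lost in 3 of 20 (1.37 to 1.67), without any 0 hpl library. cdkn1a, the p21 inhibitor, had 35.4, 18.5 and 34.0 CPM at 16 hpl, against 9.62, 7.69 and 7.06 CPM at 0 hpl. The groups did not overlap, short of the threshold (log2 fold change 1.85 ± 0.54, adjusted p = 0.119).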

How the data were processed

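The authors' deposited tables give RSEM expected counts per Ensembl gene, FPKM, and a comparison table whose columns, per the file headers, are log2 fold changes, p-values with adjusted p-values, and limma-type scores (t and B, not used). RSEM 1.2.22, Bowtie2 2.2.6, limma 3.24.15, edgeR 3.10.2, FastQC 0.10.1, cutadapt 1.4.2, Trim Galore 0.2.7 and build Zv9 are named in the submitters' processing notes, without roles. The annotation release is not stated in the sources used here. Per the labels' protocols, RNA with an integrity number over 7.0 went into stranded single-end libraries. RSEM divides reads shared between near-identical genes, so values of duplicated genes such as bub1ba carry that uncertainty.

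Expected counts were rounded and fitted with edgeR 4.0.16 in R 4.3.3: filterByExpr by group, TMM factors (0.873 to 1.07), 1 robust quasi-likelihood fit over the 9 libraries (6 residual degrees of freedom), two-sided tests, Benjamini-Hochberg adjustment over all 19875 genes, threshold 0.05. CPM are TMM-normalised. A standard error is the size of a log2 fold change divided by the root of F, and intervals use the 95% t quantile. limma 3.58.1 and DESeq2 1.42.0 served as alternatives. The fit was run on simulated counts drawn independently per gene and library, without the departures shared by the 3 libraries that stood apart. That run does not bear on those departures. Members and gene lists were chosen with earlier results of these data known. The text names key mitotic genes whatever their result, any gene called, the 5 largest rises and falls per comparison, the 8 highest in FPKM and at most 6 called genes of other lists; others were added after their values were seen. No sequences or coordinates are given. Of the alternatives, leaving out the 3 libraries that stood apart and the library quality weights were chosen after seeing the data.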

Additional observations from a re-analysis of the deposited data

How the results depend on the processing

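The count of 0 of the 49 genes called held with DESeq2 size factors or none, no filter or a stricter one, limma-voom, FPKM and fits of 6 libraries. Leaving out 1 library gave 0 to 2 called at 8 hpl against 0 hpl, 0 at 16 hpl against 0 hpl, 0 to 1 at 16 hpl against 8 hpl and 0 to 1 over the 3 times; the calls (cenpe, and aurkaip1 at 8 hpl) came without 8 hpl replicate 2. Over all genes the same fits called 95 to 1320, 103 to 661, 0 to 677 and 115 to 1549, against 563, 415, 20 and 641 with all libraries. The median log2 fold change of the 49 ran from -0.286 to -0.0765, -0.286 to -0.032 and -0.0387 to 0.192 in the 3 pairwise comparisons.

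In the same order, DESeq2 called 1505, 1272, 766 and 2230 genes, with 2, 0, 1 and 1 of the 49. Without the 3 libraries that stood apart, 1035, 1586, 98 and 1726 genes were called, with 1 of the 49 at 8 hpl and 1 over the 3 times, both spc24, whose 8 hpl log2 fold change reversed to -3.2. Library quality weights gave 5516, 2087, 5010 and 7068 genes, with 18, 1, 9 and 16 of the 49. limma-voom called 13 genes at 16 hpl against 8 hpl and 406 over the 3 times, FPKM 416 over the 3 times, and no filter 44 at 16 hpl against 8 hpl. Fits of 6 libraries called 1008 at 8 hpl against 0 hpl and 0 at 16 hpl against 8 hpl. The cause of these shifts was not tested.

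Deviations of same-numbered libraries correlated at -0.425 to 0.118, and those of differently numbered libraries at -0.224 to 0.333. The lowest and the highest of all these values involved replicate 2 of 8 or 16 hpl. The check therefore cannot settle whether replicate numbers pair the libraries. With replicate number as a block, 147, 168, 0 and 183 genes were called and 0 of the 49. Of 2940 gene-level values over 20 settings, 2836 stayed within the replicate spread and on the same side of the threshold, 69 moved further, 34 became called and 1 reversed while called; the sign changed in 221. Low counts limit cenpl, cenph and spc24, at 2, 7 and 19 counts in the libraries with the fewest. For cenpl and cenph that library was 16 hpl replicate 3, the shallowest. In CPM, however, cenph was lowest in 8 hpl replicate 2, at 0.322 CPM from 8 counts, against 0.560 CPM in 16 hpl replicate 3. For spc24 the fewest counts and the lowest CPM were in 8 hpl replicate 2. That library was not shallow, with a total of 24215972 expected counts.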
